A study of Mus musculus with 3 samples.

Results

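The miRNAs described here are mmu-miR-21a-5p, mmu-miR-29a-3p, mmu-miR-29b-3p and mmu-miR-29c-3p, 4 of the 1881 mouse miRNAs on the array, chosen by name for their link to fibrosis. The source was serum of male C57BL/6NJcl mice, 8 weeks old, and 200 µL of serum went into each of 3 RNA extractions, with 1 array per extraction. The miRNeasy serum/plasma advanced kit (miRNeasy advanced below) binds small RNA from serum or plasma to a column. In the exoRNeasy midi kit arm (exoRNeasy below), serum was first split into layers with 700 µL of QIAzol, a phenol reagent with guanidine, and RNA of the aqueous layer went onto the columns. The labels describe this arm as total serum RNA. The mirVana PARIS kit combines organic extraction with a glass-fibre filter. Every array received 1.8 ng of labelled RNA, and the labels name no treatment of the mice. The labels do not state how many mice gave the serum or whether the kits received the same pool.

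MicroRNAs are short RNAs that guide Argonaute proteins to messenger RNAs, mainly through the seed, the bases near the 5′ end that pair with the target. miR-21 is abundant in many cells, blood cells among them, and is known as a promoter of fibrosis that acts on inhibitors of growth factor signalling in fibroblasts. The miR-29 family is known for the opposite role, since its targets include messenger RNAs of collagens, elastin and other matrix proteins.

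The sequences are shown to make plain that the miR-29 miRNAs differ from each other in few bases, which bears on how array probes tell them apart. They are from RefSeq (GRCm38.p6), run 5′ to 3′, and carry the seed, bases 2 to 8, in capitals.
mmu-miR-21a-5p: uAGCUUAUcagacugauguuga
mmu-miR-29a-3p: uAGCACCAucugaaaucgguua
mmu-miR-29b-3p: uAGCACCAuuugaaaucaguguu
mmu-miR-29c-3p: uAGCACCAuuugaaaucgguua

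miR-29a-3p, miR-29b-3p and miR-29c-3p shared the seed AGCACCA, which no other of the 1608 array miRNAs matched to a RefSeq mature sequence carried. Counted from the 5′ end, miR-29a-3p and miR-29c-3p differed by 1 substitution, C10U. From miR-29b-3p to miR-29c-3p the substitutions were A18G, G21U and U22A, and miR-29b-3p was 1 base longer. miR-21a-5p had the seed AGCUUAU, shared with miR-21c, whose first 15 bases were identical to those of miR-21a-5p. The share of G and C was 36.4% in miR-21a-5p, 40.9% in miR-29a-3p, 34.8% in miR-29b-3p and 36.4% in miR-29c-3p, against a median of 45.5% over the 59 miRNAs with a sequence among those detected on all 3 arrays. All 4 were thus rich in A and U.

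In the same build, mature miR-21a-5p lies at chr11:86584120-86584141 on the minus strand. Its hairpin falls within the span of the protein-coding gene Vmp1, 209 bases from the lower-coordinate end of that gene. Mature miR-29a-3p lies at chr6:31062673-31062694 on the minus strand, and 275 bases separate its hairpin from that of Mir29b-1. Mature miR-29c-3p lies at chr1:195037600-195037621 on the plus strand, 426 bases of spacer away from the Mir29b-2 hairpin, and both hairpins fall within the long noncoding RNA gene A330023F24Rik. Mir29b-1 and Mir29b-2 give the same mature miR-29b-3p, so its signal cannot be assigned to either locus. The gene table used here holds spans and no exons, so no hairpin is placed in an exon or an intron.

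The arrays were on 1 slide and were scanned at 1 detector setting, and the array step thus had no slide difference to separate the kits. A miRNA was called detected when over 0.5 of the spots of at least 1 of its probes were flagged well above background. By that rule the exoRNeasy array detected 83 miRNAs, the miRNeasy advanced array 71 and the mirVana PARIS array 134, and 67 were common to all 3. With 1 array per kit no test was possible and no p-value is given. Errors are standard errors between replicate spots, so they leave out variation from the extraction and between mice. Levels are log2 signals minus the 75th percentile of each array over the 106 probes detected on all 3 arrays.

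All 4 miRNAs were detected on every array. The brighter probe of miR-21a-5p had spot signals with a lowest value of 948, a median of 1021 and a highest of 1122 with exoRNeasy. The corresponding values were 605, 667 and 754 on the miRNeasy advanced array and 1379, 1522 and 1664 on the mirVana PARIS array (15 spots each). The miR-21a-5p signal before scaling was therefore highest with mirVana PARIS and lowest with miRNeasy advanced, and the spot ranges did not overlap.

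The probe of miR-29a-3p gave 327, 337 and 386 as lowest, median and highest spot signal with exoRNeasy (14 spots). It gave 160, 179 and 197 on the miRNeasy advanced array and 550, 604 and 644 on the mirVana PARIS array (15 spots each). The kits fell in the same order as for miR-21a-5p, again without overlap.

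miR-29b-3p was dim, with spot signals of 24.5, 29.1 and 34.1 (lowest, median, highest; 15 spots) with exoRNeasy. With miRNeasy advanced they were 11.9, 18.9 and 22.3 (14 spots), and on the mirVana PARIS array 44.9, 48.9 and 60.9 (15 spots). The lowest signal of any detected probe was 21.6, 12.2 and 8.81 on these arrays in the same order, so that miR-29b-3p stood close to the limit of detection on the first of them and on the second. On the miRNeasy advanced array 13 of its 14 spots were well above background.

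miR-29c-3p had spot signals of 37.4, 44.9 and 56.4 with exoRNeasy (14 spots). They were 18.6, 24.7 and 29.4 with miRNeasy advanced and 83.9, 96.3 and 107 with mirVana PARIS (15 spots each). The order of the kits was once more the same. Probes bind with different strength, so these signals do not rank the 4 miRNAs by abundance.

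**Figure D1:**
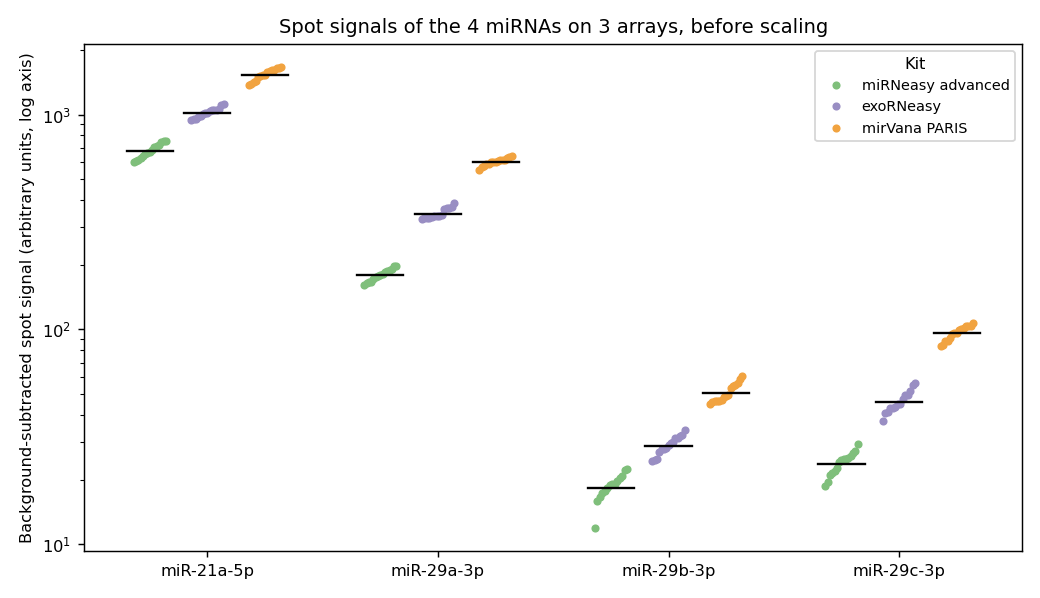
Background-subtracted signal of each spot (log axis, arbitrary units) for the brighter probe of the 4 miRNAs on the 3 arrays, with spots of an array arranged by signal and a bar at the mean of their log2 values. For each miRNA the spots of mirVana PARIS lie above those of exoRNeasy and these above those of miRNeasy advanced, with no overlap.

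Each miRNA had 2 probes, and 7 of the 8 probes were detected on all 3 arrays. Over these 7 probes and 3 pairs of arrays, 0 of 21 pairs of spot ranges overlapped before scaling. The exception was the second probe of miR-29b-3p, for which 0 spots were well above background on any array, with a median spot signal of −1.23 with exoRNeasy, 0.186 with miRNeasy advanced and 0.813 with mirVana PARIS. The level of miR-29b-3p therefore rests on 1 probe. The second miR-29b-3p probe was thus at background on arrays where the probes of miR-29a-3p and miR-29c-3p were well above it. How far the brighter miR-29b-3p probe binds these relatives was not tested.

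The other arms of the same hairpins and the named relatives of miR-21a were at background. The list held miR-21a-3p, miR-21b, miR-21c, miR-29a-5p, miR-29b-1-5p, miR-29b-2-5p and miR-29c-5p, and 0 of the 7 were detected on any array. Over their 20 probes and the 3 arrays, 0 spots were well above background, and the highest mean spot signal of any probe was 4.65. The negative controls averaged 5.41, 4.92 and 5.49 on the exoRNeasy, miRNeasy advanced and mirVana PARIS arrays. The miR-21c probes stayed there too. miR-21c has the seed of miR-21a-5p but differs from it at 5 of 21 compared positions near the 3′ end (A16G, G18A, U19C, U20A and G21A).

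Before scaling, the members' differences went beyond those of the spike-in RNA added at labelling. For miRNeasy advanced minus mirVana PARIS the unscaled log2 difference was −1.18 for miR-21a-5p, −1.75 for miR-29a-3p, −1.46 for miR-29b-3p and −2.02 for miR-29c-3p. The labelling spike-in differed by −0.13 ± 0.12 (SD, 4 probes), and the median over the 71 miRNAs detected on both arrays was −1.63. For exoRNeasy minus mirVana PARIS the members lay between −1.06 and −0.59, beside −0.25 ± 0.18 for the labelling spike-in and a median of −0.64 over 80 miRNAs. For exoRNeasy minus miRNeasy advanced they lay between 0.60 and 0.96, beside −0.12 ± 0.08 and a median of 0.96 over 67 miRNAs. The hybridisation spike-in differed by −0.01 ± 0.06, 0.41 ± 0.11 and 0.42 ± 0.06 (SD, 4 probes) in these 3 comparisons in turn. The lower signal of the members with miRNeasy advanced was thus shared with most miRNAs. Scaling moved all miRNAs of an array by the same amount and left a common offset. The scaled median of all miRNAs was 0.12 for exoRNeasy minus miRNeasy advanced and 0.33 for exoRNeasy minus mirVana PARIS. It was 0.18 for miRNeasy advanced minus mirVana PARIS. The scaled differences below are therefore not differences from the typical miRNA.

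After scaling to the shared probes, the main setting, none of the 4 miRNAs reached a 2-fold difference between any pair of kits. Under at least 1 other setting 10 of the 12 differences did, and all 12 had the opposite sign under at least 1. With the labelling spike-in as reference, miR-29a-3p and miR-29c-3p reached 1.07 and 1.08 for exoRNeasy minus miRNeasy advanced. With both probes averaged, including the probe at background, miR-29b-3p reached 1.03 for miRNeasy advanced minus mirVana PARIS. In the main setting 0 of 4 were called in exoRNeasy minus miRNeasy advanced, meaning at least 2-fold apart and over 3 spot errors, against 4.48% of all 67 miRNAs. The counts were 0 of 4 against 27.5% of 80 in exoRNeasy minus mirVana PARIS and 0 of 4 against 16.9% of 71 in miRNeasy advanced minus mirVana PARIS. With 4 members, these counts do not set them apart from the rest.

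miR-21a-5p had scaled log2 levels of 3.19 with miRNeasy advanced, 2.95 with exoRNeasy and 2.57 with mirVana PARIS. It was 1.54-fold higher with miRNeasy advanced than with mirVana PARIS (log2 0.62 ± 0.04), the widest scaled difference of the 4 miRNAs. This direction turned to −1.18 without scaling, to −1.05 with the labelling spike-in as reference and to −1.15 with the percentile taken over every probe. The difference was 0.38 ± 0.03 for exoRNeasy minus mirVana PARIS and −0.24 ± 0.03 for exoRNeasy minus miRNeasy advanced, and both also changed sign with those 3 settings, the latter also with normexp, a model-based background correction with an added offset (0.02). Each of the 3 differences exceeded 3 spot errors. The 0.38 lay close to the median of 0.33 over all 80 miRNAs, with 36 higher and 43 lower.

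miR-29a-3p had levels closest together over the kits under this scaling, at 1.27 with miRNeasy advanced, 1.39 with exoRNeasy and 1.22 with mirVana PARIS. The exoRNeasy level was higher by 0.12 ± 0.03 than that with miRNeasy advanced and by 0.17 ± 0.03 than that with mirVana PARIS. Neither difference exceeded the median of all miRNAs (0.12 and 0.33), and 51 of 80 miRNAs were higher than the second. Both signs turned negative, to −0.16 and −0.07, with arrays scaled to the median of the shared probes, and the second also without scaling (−0.80), with the labelling spike-in (−0.55) and with the percentile taken over every probe (−1.26). miRNeasy advanced and mirVana PARIS differed by 0.06 ± 0.03, within 3 spot errors, and the sign was opposite in 5 of 14 settings, with −1.75 without scaling, −1.72 with the percentile taken over every probe and −1.62 with the labelling spike-in.

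miR-29b-3p was at −2.01 with miRNeasy advanced, −2.20 with exoRNeasy and −2.35 with mirVana PARIS. The outer values differed by 0.34 ± 0.07, beyond 3 spot errors, and this sign too turned negative without scaling (−1.46), with the labelling spike-in (−1.33) and with the percentile taken over every probe (−1.44). The neighbouring levels did not differ beyond 3 spot errors, at −0.19 ± 0.07 for exoRNeasy minus miRNeasy advanced and 0.16 ± 0.05 for exoRNeasy minus mirVana PARIS. Over 13 other settings the first ranged from −0.62 to 0.77, with the opposite sign in 3, and the second from −1.28 to 0.49, with the opposite sign in 4.

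miR-29c-3p ran in the other order, at −1.64 with miRNeasy advanced, −1.52 with exoRNeasy and −1.43 with mirVana PARIS. It was the member that stood lower with miRNeasy advanced than with mirVana PARIS both before and after scaling (−0.21 ± 0.06 scaled, −1.88 with the labelling spike-in and −1.99 with the percentile taken over every probe). That sign turned positive with pixel medians that were not background-corrected (0.33) and with normexp (0.37). exoRNeasy differed from miRNeasy advanced by 0.12 ± 0.07 and from mirVana PARIS by −0.09 ± 0.05, within 3 spot errors in both cases. The first changed sign in 4 of 14 settings, over a range of −0.25 to 1.08, and the second in 3 of 14, over −1.52 to 0.21.

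**Figure D2:**
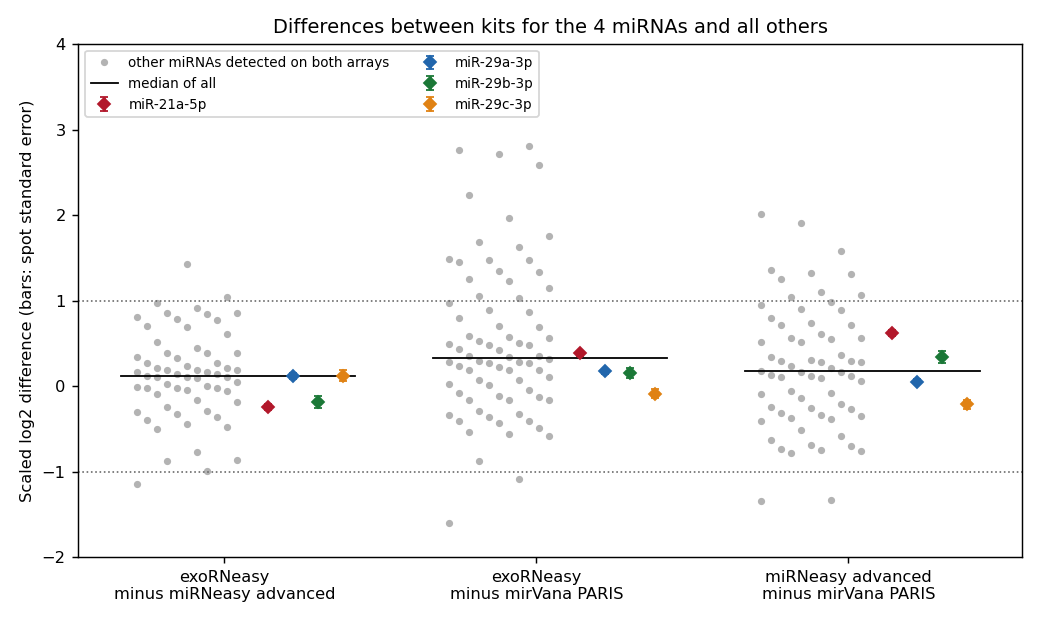
Scaled log2 difference between kits for the 4 miRNAs (diamonds, bars are spot standard errors) and for every other miRNA detected on both arrays (grey), with a line at the median of all and dotted lines at 2-fold. The 4 miRNAs lie between −0.24 and 0.62, inside the dotted lines, while their signs depend on the scaling as given in the text.

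A difference between 2 miRNAs of the same array is free of the scaling, and most pairs of members differed beyond the spot error. The log2 difference of miR-21a-5p minus that of miR-29a-3p was 0.57 ± 0.05 for miRNeasy advanced minus mirVana PARIS. It was 0.21 ± 0.04 for exoRNeasy minus mirVana PARIS and −0.36 ± 0.05 for exoRNeasy minus miRNeasy advanced. In these 3 comparisons the sign held under all 14 processing alternatives, with ranges of 0.36 to 0.57, 0.16 to 0.24 and −0.36 to −0.21. Alternatives that only rescale an array or change the floor or the detection rule left the values unmoved. The deposited value table holds the same intensity. These alternatives therefore do not test the sign, and it rests on those that change background, outliers or probe summary. The signal of miR-21a-5p relative to miR-29a-3p was thus highest with miRNeasy advanced and lowest with mirVana PARIS. Without replicate arrays it is not known how this compares with the spread between extractions.

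A wider gap was seen between miR-21a-5p and miR-29c-3p, at 0.83 ± 0.07 for miRNeasy advanced minus mirVana PARIS, a ratio of 1.78-fold. This gap was less stable, since it came to −0.09 with pixel medians and −0.21 with normexp, and the cause was not tested. Over all 6 pairs of members and 3 comparisons, 15 of 18 gaps exceeded 3 spot errors.

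The miR-29 miRNAs, which share a seed, differed from each other in profile. For miRNeasy advanced minus mirVana PARIS, miR-29b-3p minus miR-29c-3p was 0.55 ± 0.09 and kept its sign under all 13 alternatives that gave a value, from 0.39 to 1.27. miR-29a-3p minus miR-29b-3p was −0.28 ± 0.08 there, also with the same sign in 13 of 13. Here too the rescalings, the raised floor and the detection flag left both gaps unmoved, so they do not test them. The 1.27 came with all probes averaged, which takes in the miR-29b-3p probe at background. The miR-29a-3p and miR-29c-3p pair, apart by a single base, showed a gap of 0.27 ± 0.06, which turned to −0.49 with pixel medians and −0.57 with normexp. For exoRNeasy minus miRNeasy advanced that pair did not differ beyond its error, at −0.01 ± 0.07. miR-29b-3p, which is made from both clusters, thus differed beyond 3 spot errors from each cluster partner for miRNeasy advanced minus mirVana PARIS, while for exoRNeasy minus mirVana PARIS its gap to miR-29a-3p was 0.02 ± 0.06.

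A check on these profiles came from the second probes. The scaled differences of the 2 probes of miR-29c-3p lay within 0.06 log2 units of each other in all 3 comparisons, less than their spot errors. For miR-29a-3p the probes disagreed in sign for miRNeasy advanced minus mirVana PARIS, at 0.06 ± 0.03 and −0.04 ± 0.05. For miR-21a-5p both probes gave the same order of kits, with 0.45 ± 0.03 from the dimmer probe beside 0.62 ± 0.04 from the brighter one. That gap of 0.17 ± 0.05 and the one of 0.15 ± 0.04 for exoRNeasy minus mirVana PARIS were the 2 of 9 that exceeded 3 spot errors. Such gaps were common on these arrays, and the median gap over the 42 miRNAs with several probes was 0.12 for miRNeasy advanced minus mirVana PARIS.

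**Figure D3:**
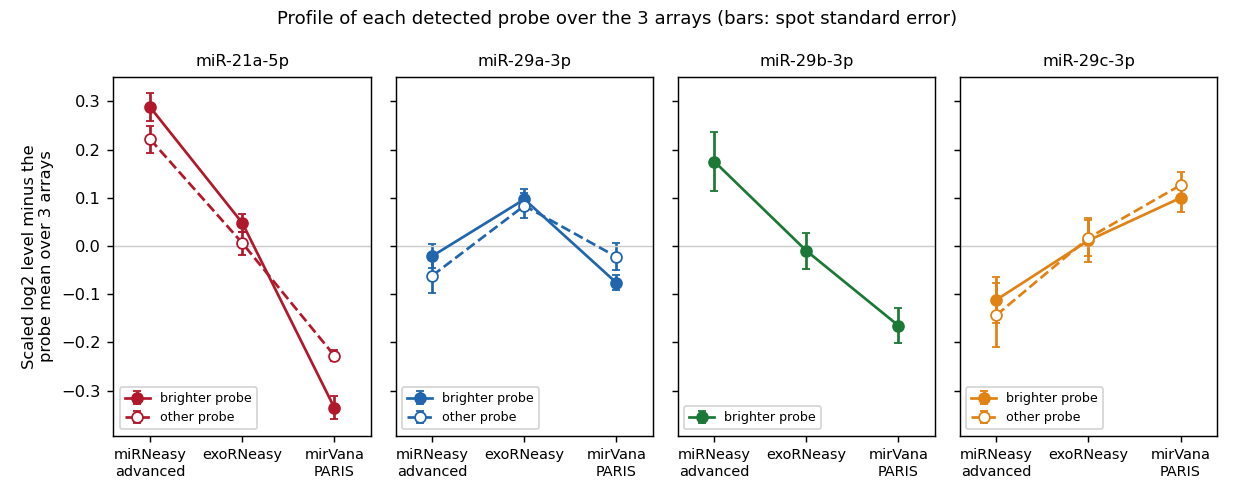
Scaled log2 level of each detected probe minus its mean over the 3 arrays, with spot standard errors, for the brighter probe (filled) and the other probe (open) of each miRNA. The 2 probes of miR-21a-5p fall from miRNeasy advanced to mirVana PARIS after scaling, those of miR-29c-3p run the other way under the main processing, and miR-29b-3p has 1 detected probe.

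miR-29c-3p stood below most miRNAs of similar signal in both comparisons with mirVana PARIS, a result computed under the main processing. For each member the 5 miRNAs above and the 5 below it in mean scaled level were taken from those detected on all 3 arrays, with 2 above for miR-21a-5p. For miRNeasy advanced minus mirVana PARIS, miR-29c-3p at −0.21 was lower than 9 of its 10 neighbours, whose median was 0.76. For exoRNeasy minus mirVana PARIS, its −0.09 was again lower than 9 of 10, with a median of 0.73, and these comparisons share the mirVana PARIS array. Among all miRNAs detected on both arrays miR-29c-3p stood out less. For miRNeasy advanced minus mirVana PARIS 20 of 71 were lower than it (median of all 0.18). For exoRNeasy minus mirVana PARIS 19 of 80 were lower (median of all 0.33). The neighbours of miR-29c-3p included let-7a-5p, let-7b-5p and let-7f-5p, miRNAs of the let-7 growth-restraining family, at 1.07, 1.36 and 0.72 for miRNeasy advanced minus mirVana PARIS.

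miR-21a-5p was higher than 6 of its 7 neighbours for miRNeasy advanced minus mirVana PARIS, with a neighbour range of −0.73 to 1.04. The mean scaled levels of these neighbours ran from 1.64 to 5.92 (miR-451a), beside 2.90 for miR-21a-5p, so the match in level was loose. Among them the red cell miRNAs miR-16-5p and miR-451a were at −0.73 and −0.06, and the myeloid miRNA miR-223-3p at 0.29. In exoRNeasy minus miRNeasy advanced miR-21a-5p was lower than 6 of the 7. The 2 red cell miRNAs parted there, with miR-451a below miR-21a-5p at −0.50 and miR-16-5p above it at 0.15. miR-29a-3p lay in the middle of its 10 neighbours, with 5 higher and 5 lower in that comparison, and 4 higher and 6 lower in the other two. miR-29b-3p was lower than 9 of 10 for exoRNeasy minus miRNeasy advanced and higher than 8 of 10 for miRNeasy advanced minus mirVana PARIS. Among all miRNAs it stood out less, with 15 of 67 lower than it in the first and 27 of 71 higher in the second. Its difference in the first, −0.19, was within 3 spot errors and rests on 1 dim probe.

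**Figure D4:**
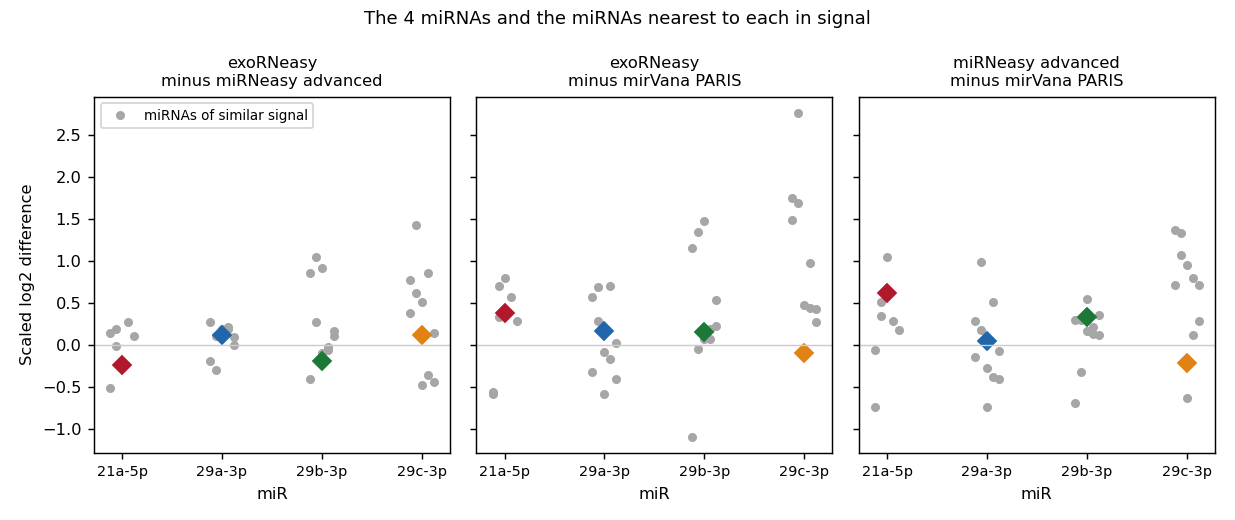
Scaled log2 difference between kits for each of the 4 miRNAs (coloured diamonds) and for the miRNAs nearest to it in mean signal (grey; 7 for miR-21a-5p and 10 for the others). miR-29c-3p lies below 9 of its 10 neighbours in both comparisons with mirVana PARIS. Among all miRNAs detected on both arrays, 19 of 80 lie lower than it for exoRNeasy and 20 of 71 for miRNeasy advanced.

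The miRNAs with the most similar profile were found by the distance between levels over the 3 arrays, each miRNA centred on its own mean, among 66 others. Nearest to miR-21a-5p were miR-26b-5p at a distance of 0.081, miR-8110 at 0.12 and miR-140-5p at 0.14 log2 units. miR-29a-3p had miR-140-3p at 0.011, miR-7047-5p at 0.052 and miR-24-3p at 0.086. miR-29b-3p had miR-195a-5p at 0.12, miR-497a-5p at 0.12 and miR-3963 at 0.15, and miR-29c-3p had miR-6366 at 0.048, miR-15b-5p at 0.051 and miR-22-3p at 0.10. No member was among the 3 nearest of another. The closest of the other members to miR-21a-5p was miR-29b-3p, 7th of the 66 at a distance of 0.21. A likeness over 3 arrays rests on 3 values and is a description.

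A high share of A and U did not go with a common direction. Of the 59 miRNAs with a sequence on all 3 arrays, 25 had a G and C share no higher than the 40.9% of miR-29a-3p. Without the members, the 21 others had differences from −0.74 to 1.58 for miRNeasy advanced minus mirVana PARIS, with a median of 0.24 beside 0.20 for the members. In exoRNeasy minus miRNeasy advanced they ranged from −1.14 to 0.86, with a median of 0.045 beside −0.03. The lowest shares belonged to miR-144-3p, let-7f-5p, miR-26b-5p, miR-142a-3p and miR-19a-3p beside miR-29b-3p. Of these, miR-144-3p was at −0.74 ± 0.04 and miR-142a-3p at 0.74 ± 0.04 for miRNeasy advanced minus mirVana PARIS. Across miRNAs, which are not independent and share their arrays, Spearman's rho of the G and C share with the difference was 0.067 for exoRNeasy minus miRNeasy advanced (59 miRNAs), 0.13 for exoRNeasy minus mirVana PARIS (71) and 0.13 for miRNeasy advanced minus mirVana PARIS (61).

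**Figure D5:**
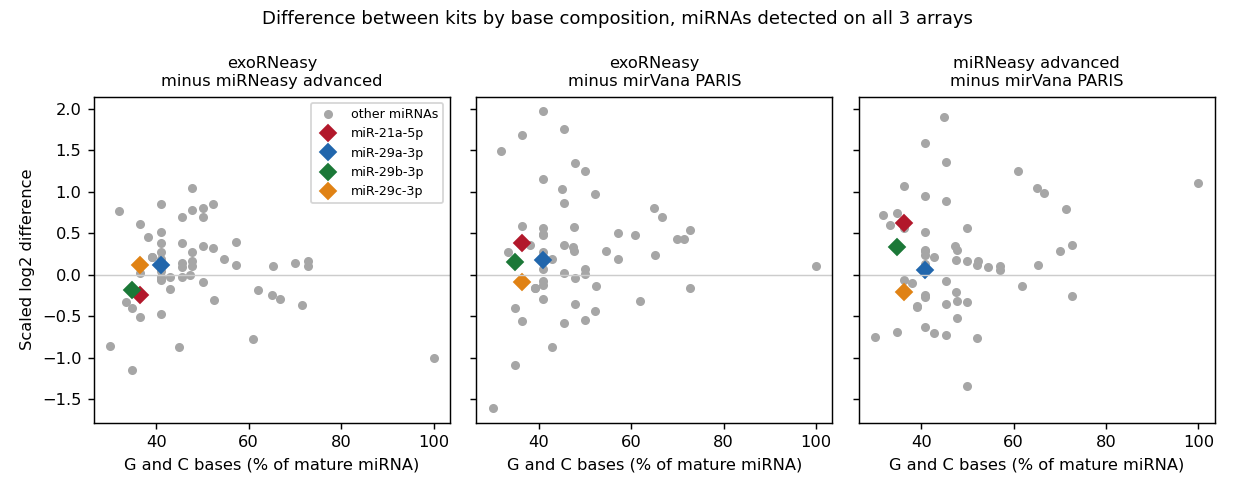
Scaled log2 difference between kits against the share of G and C bases in the mature miRNA, for the 4 miRNAs (diamonds) and the others detected on all 3 arrays with a RefSeq sequence (grey). The 4 miRNAs lie between 34.8% and 40.9%, among other miRNAs of both signs.

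Other miRNAs with a reported role in fibrosis were detected in numbers that differed between kits, as did the numbers over all miRNAs. Of 8 reported as promoting it, 2 were detected with exoRNeasy, 2 with miRNeasy advanced and 3 with mirVana PARIS. These were miR-199a-3p and miR-192-5p, with miR-34a-5p on the mirVana PARIS array. miR-199a-3p differed by 0.95 ± 0.05 (−0.85 before scaling) and miR-192-5p by −0.21 ± 0.05 for miRNeasy advanced minus mirVana PARIS. Of these 2, 0 were called in any comparison. Over all miRNAs the called share was 4.48% (exoRNeasy minus miRNeasy advanced), 27.5% (exoRNeasy minus mirVana PARIS) and 16.9% (miRNeasy advanced minus mirVana PARIS). Of 15 reported as limiting fibrosis, 11 were detected with exoRNeasy, 7 with miRNeasy advanced and 13 with mirVana PARIS. Over all 1881 miRNAs, 83, 71 and 134 were detected on these arrays in turn, the same order of kits.

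In exoRNeasy minus mirVana PARIS, 5 of the 11 limiting miRNAs detected on both arrays were called, against 27.5% of all, and each was higher with exoRNeasy. They were miR-200a-3p (2.58 ± 0.08), miR-200b-3p (2.24 ± 0.05), miR-26a-5p (1.45 ± 0.08), let-7d-5p (1.15 ± 0.06) and miR-30c-5p (1.05 ± 0.08), and the list's median of 0.36 stood beside 0.33 for all 80. With the percentile taken over every probe, let-7d-5p turned to −0.28, miR-30c-5p to −0.38, miR-26a-5p came to 0.018 and miR-200b-3p to 0.81, so that miR-200a-3p alone (1.15) stayed past 2-fold. Without scaling, miR-200a-3p (1.61) and miR-200b-3p (1.27) stayed past 2-fold, and miR-26a-5p was at 0.48, let-7d-5p at 0.18 and miR-30c-5p at 0.085. All 5 were dim with mirVana PARIS, with signals of 14.3, 23.9, 23.4, 37.5 and 21.5 in that order. With exoRNeasy, miR-30c-5p at 22.8 stood near the lowest detected probe (21.6). Of the 5, let-7d-5p alone was detected with miRNeasy advanced. Background settings were not followed for each of the 5. Over all 80 miRNAs, 22 calls became 14 with pixel medians and 10 with normexp. The miR-200 miRNAs restrain the mesenchymal programme through Zeb1 and Zeb2. In miRNeasy advanced minus mirVana PARIS the muscle miRNA miR-133a-3p was called, at −1.33 ± 0.05, which is 1 of 7 against 16.9% of all, and the median of the 7 limiting miRNAs was −0.37 against 0.18 for all. In exoRNeasy minus miRNeasy advanced 0 of 7 were called, against 4.48% of all, with a median of 0.70 against 0.12. The collagen-targeting miR-29 miRNAs, at −0.19 to 0.12 there, stayed below that median. The remaining limiting miRNAs with a value on all 3 arrays were miR-30a-5p, miR-1a-3p, miR-24-3p, miR-19b-3p and miR-122-5p, with differences between −0.78 and 0.10 for miRNeasy advanced minus mirVana PARIS, and miR-101a-3p and miR-18a-5p were detected with mirVana PARIS alone.

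Blood cell and tissue miRNAs that serum can hold were present on every array. All 4 red cell miRNAs, both platelet and myeloid, both liver and both muscle miRNAs were detected on each array, and of the leukocyte miRNAs miR-142a-3p on each and miR-150-5p with mirVana PARIS. The summed red cell signal, on the scaled log2 scale, was 5.68 with exoRNeasy, 6.15 with miRNeasy advanced and 6.25 with mirVana PARIS. The platelet and myeloid sum was 2.63, 2.41 and 2.02 in the same order, the leukocyte sum −1.01, −0.16 and −0.73, the liver sum 1.32, 0.47 and 0.90, and the muscle sum 0.73, 0.54 and 1.16. The red cell sum was mostly miR-451a, which before scaling gave 6241 of 6782, 4958 of 5251 and 18032 of 19715 in that order. For exoRNeasy minus miRNeasy advanced, miR-451a (−0.50) and miR-144-3p (−0.86) were lower, whereas miR-16-5p (0.15) and miR-486a-5p (0.24) were higher. Before scaling, the red cell, platelet and myeloid, liver and muscle sums were highest with mirVana PARIS and lowest with miRNeasy advanced, the order of miR-21a-5p before scaling. After scaling, miR-126a-3p of the platelet and myeloid pair was at 0.026 with miRNeasy advanced, 0.0046 with exoRNeasy and −0.87 with mirVana PARIS. Its exoRNeasy minus miRNeasy advanced difference was within spot error, at −0.02 ± 0.04. The other of the pair, miR-223-3p, was highest with exoRNeasy (2.37), then miRNeasy advanced (2.10) and mirVana PARIS (1.80), which is not the order of miR-21a-5p after scaling. The part of blood cell RNA in the members' levels was not tested.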

How the data were processed

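RNA from mouse serum was labelled with Cy3 and read on 3 one-colour Agilent miRNA arrays, 1 per kit. The authors deposited linear spot intensity values per array, made with Agilent Feature Extraction 11.5.1.1, with background already subtracted and no normalisation between arrays, per the file headers (11.5 per the submitters' processing notes). The deposited value table held the same intensity, all 58594 per array to within a tolerance of 0.50%, with a column median of −2.77 with exoRNeasy, −1.51 with miRNeasy advanced and −1.44 with mirVana PARIS, so it is linear and not centred.

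Control spots and spots flagged as outliers were left out, and 0 spots were saturated. Spot intensities, floored at 1, were put on the log2 scale before averaging by probe. From each array its 75th percentile was subtracted, taken over the 106 probes that all 3 arrays detected. Of a miRNA's probes, the one with most arrays above background stood for it, with ties settled by the mean. Members were spots named exactly as the 4 miRNAs. A call needed a 2-fold difference that also exceeded 3 spot errors, among miRNAs detected on both arrays. The number of arrays limits the precision.

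The named miRNAs were the members, the other arms and relatives, lists of miRNAs reported to promote or limit fibrosis, blood cell and tissue miRNAs, 5 neighbours in level on each side, the 3 nearest in profile and up to 6 of lowest G and C share. The members and lists were chosen with earlier results of these data known. Sequences were matched by name to RefSeq, which held 1608 of the 1881 miRNAs. Scaling, background, probe summary, outliers, floor, detection and call size were varied. Python 3.11.15, numpy 2.4.6, pandas 2.3.3, scipy 1.17.1, R 4.3.3 and limma 3.58.1 (for normexp) were used. Simulated arrays served to check that known shifts were recovered after centring on the unchanged miRNAs. The call rule with its spot errors was not checked in this way.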

Additional observations from a re-analysis of the deposited data

How the results depend on the processing

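The 4 miRNAs were detected on each array under the main rule, and 3 of them when every probe had to be above background, since 1 miR-29b-3p probe was silent. The members' median relative to all miRNAs was −0.16 for exoRNeasy minus miRNeasy advanced and became −0.37 with outlier spots kept and 0.016, of opposite sign, with every probe required (3 members). With outlier spots kept, a single miR-29c-3p spot on the exoRNeasy array with a signal of −7.08, beside 37.4 to 56.4 in the other 14, took its difference from 0.12 to −0.25. For miRNeasy advanced minus mirVana PARIS the median was 0.018, 0.21 with all probes averaged, which takes in the silent probe, and −0.18 with every probe required (3 members). For exoRNeasy minus mirVana PARIS it stayed between −0.26 and −0.08. Counts of all miRNAs at least 2-fold apart moved more. For exoRNeasy minus miRNeasy advanced the count of 3 became 29 without scaling, 12 with the percentile over all probes, 6 with the median of shared probes, 39 with the labelling spike-in, 0 with pixel medians and 0 with normexp, 8 with all probes averaged, 6 with the scanner's total gene signal, 18 at 1.5-fold, 1 with every probe required and 9 with the scanner's detection flag. For exoRNeasy minus mirVana PARIS 22 became 49 with the percentile over all probes, 14 with pixel medians, 10 with normexp and 6 with every probe required. For miRNeasy advanced minus mirVana PARIS 12 became 57 without scaling, 56 with the percentile over all probes, 53 with the labelling spike-in, 7 with pixel medians, 7 with normexp, 29 at 1.5-fold and 6 with every probe required. Of these, fewer miRNAs could be compared with every probe required, and 1.5-fold is a looser cut. With the detection flag, 89 miRNAs in place of 67 were compared for exoRNeasy minus miRNeasy advanced. Without scaling, the median of all miRNAs was itself at 0.96 in that comparison and at −1.63 for miRNeasy advanced minus mirVana PARIS. The cause of the other shifts was not tested. No replicate could be left out, and no paired analysis was possible because each kit has 1 array.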
